A study of Mus musculus with 16 samples.

Results

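Cell cycle and DNA replication genes were followed in mouse liver as a set of 35 symbols, and all 35 were found among the 23420 gene rows of the count table, of which 18203 held at least 1 count. The set was chosen by name and covers G1/S cyclins, the transcription factors E2f1 and Foxm1, the origin licensing genes, the replication clamp and nucleotide enzymes, 15 genes of G2 and mitosis, and the inhibitor Cdkn1a. The livers came from male wild-type C57BL/6J mice, all on a 45% high-fat diet (HFD), either alone or with 0.04% fenretinide (FEN-HFD), a synthetic retinoid. Feeding lasted 7 days or 20 weeks, with 4 mice in each of the 4 groups, and no group without HFD was analysed here. The ages at sampling were not given in the sources used here, and because the 7-day and 20-week mice were different animals, time on diet, age and cohort cannot be told apart.

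A dividing cell licenses its replication origins in G1 by loading the Mcm2 to Mcm7 helicase with Cdc6 and Cdt1, copies its DNA in S phase, and then makes the cyclin B and Cdk1 machinery that drives mitosis. E2F factors switch on the S phase genes, while the mitotic genes peak later through the DREAM and B-Myb/FoxM1 complexes. Cdkn1a encodes p21, a p53-induced protein that blocks cyclin-dependent kinases. Hepatocytes of an adult liver seldom divide, so a whole-liver library carries little of these transcripts, and part of it can come from immune, endothelial or biliary cells.

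Library totals ranged from 19218200 to 32546800 counts, and levels are given as CPM, that is counts relative to library size, scaled by TMM factors over all 16 libraries. The FEN-HFD 20-week library of mouse 29 stood apart, with 53.1% of its counts in the ribosomal RNA gene Rn45s (0.466% to 1.46% in the other 15) and 4.36% in Lars2 (0.00173% to 0.0499%). The hepatocyte marker Alb was at 28143 to 54152 CPM, whereas the hepatocyte marker Ass1 did not exceed 0.528 CPM in any library. Whether the low Ass1 value came from the counting or from the livers was not tested. In whole-liver RNA, fewer cells of a type and less RNA per cell cannot be told apart.

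Per length, the set spanned a wide range of levels. Tk1 (thymidine kinase) was the highest, at a mean of 17.7 CPM per kb of exon over the 16 livers, followed by Pcna (the sliding clamp, 16.03) and Ccnd1 (cyclin D1, 13.3). Cdk2 followed at 4.63 and Mcm7 at 4.52 CPM per kb. Tk1 and Mcm7, among others, overlap genes on the opposite strand. The use of strand in counting was not given, so reads of those genes could be part of these values. The proliferation marker Mki67 reached 0.720 CPM per kb, and the lowest members were Cdc6 (0.128), Plk1 (0.124) and Foxm1 (0.111). Plk1, the polo-like kinase of mitotic entry, had 0 to 25 counts per library and was the only member under the low-count filter in every comparison. Its 0 counts in FEN-HFD 20-week mouse 24 allow up to 3 counts at that depth, for counting error only.

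Promoters of 29 of the 35 members were found in RefSeq windows of 300 bases (250 before and 50 after the start site, assembly GRCm38.p6). The other 6 were Ccnd1, Ccne2, Foxm1, Mcm4, Ccna2 and Aurkb. The windows are shown because the CHR and E2F letters lay mostly in different role groups of the members, a feature that the choice of members did not use. The CHR element, searched as TTTGAA on both strands, was present in 9 of the 13 G2 and mitosis windows, against 18.1% of the windows of all 27025 genes in the table. A CCAAT box, searched as CCAAT on both strands, was present in 12 of those 13 windows, against 37.9% of all. It did not separate the roles, since 5 of the 7 origin licensing and 3 of the 5 clamp and nucleotide windows also held it. An E2F element, searched as TTTCCCGC, TTTCGCGC, TTTGCCGC or TTTGGCGC on both strands, was present in 6 of the 7 origin licensing windows (Cdc6, Cdt1, Mcm3, Mcm5, Mcm6 and Mcm7), against 2.32% of all. Of the 13 G2 and mitosis windows, only that of Cdk1 held it. The E2F element was in 0 of the 5 clamp and nucleotide windows, 0 of 1 transcription factor window and 1 of 2 G1/S windows (Cdk2). Mcm2, whose level differed most between durations among the licensing genes, was the licensing member without an E2F match and with a CHR match, at position -70 from its start site. These matches describe letters in a window and are not evidence that a factor binds there.

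The 5 windows are given 5′ to 3′ on the strand of the gene, in lower case with the matched letters in capitals: Ccnb2 (chr9:70421505-70421804, minus strand) and Cdc20 (chr4:118437294-118437593, minus strand) with CHR and CCAAT matches, Mcm5 (chr8:75109259-75109558, plus strand) and Mcm6 (chr1:128359656-128359955, minus strand) with E2F and CCAAT matches, and Cdkn1a (chr17:29090729-29091028, plus strand) with matches to the p53 half-site.
Ccnb2: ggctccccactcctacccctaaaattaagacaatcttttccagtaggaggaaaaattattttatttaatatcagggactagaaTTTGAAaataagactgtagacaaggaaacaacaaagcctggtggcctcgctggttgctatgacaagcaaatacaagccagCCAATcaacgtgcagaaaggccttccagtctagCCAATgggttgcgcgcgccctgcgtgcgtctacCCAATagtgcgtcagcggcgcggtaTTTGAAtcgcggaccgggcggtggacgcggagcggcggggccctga
Cdc20: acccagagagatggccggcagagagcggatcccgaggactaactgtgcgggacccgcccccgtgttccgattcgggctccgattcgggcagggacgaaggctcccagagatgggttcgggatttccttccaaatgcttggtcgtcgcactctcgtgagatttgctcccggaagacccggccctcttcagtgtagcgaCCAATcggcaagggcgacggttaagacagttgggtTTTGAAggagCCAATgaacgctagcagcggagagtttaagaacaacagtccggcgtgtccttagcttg
Mcm5: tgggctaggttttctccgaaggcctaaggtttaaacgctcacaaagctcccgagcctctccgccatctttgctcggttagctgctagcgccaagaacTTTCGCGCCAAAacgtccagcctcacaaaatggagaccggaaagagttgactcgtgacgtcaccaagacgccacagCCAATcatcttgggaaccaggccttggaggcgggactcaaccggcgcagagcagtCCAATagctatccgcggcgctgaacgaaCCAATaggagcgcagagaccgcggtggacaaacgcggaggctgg
Mcm6: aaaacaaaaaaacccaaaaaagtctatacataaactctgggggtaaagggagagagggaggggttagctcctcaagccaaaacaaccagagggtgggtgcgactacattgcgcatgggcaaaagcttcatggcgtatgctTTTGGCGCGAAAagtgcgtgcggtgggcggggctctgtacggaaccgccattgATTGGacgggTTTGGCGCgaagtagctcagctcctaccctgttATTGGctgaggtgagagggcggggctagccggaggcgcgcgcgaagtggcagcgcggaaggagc
Cdkn1a: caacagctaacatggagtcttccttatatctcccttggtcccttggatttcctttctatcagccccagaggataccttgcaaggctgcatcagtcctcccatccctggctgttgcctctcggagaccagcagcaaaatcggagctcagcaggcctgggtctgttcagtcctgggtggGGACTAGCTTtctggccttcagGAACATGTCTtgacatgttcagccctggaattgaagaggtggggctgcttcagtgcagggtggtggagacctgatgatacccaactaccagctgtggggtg
In Ccnb2 the CHR letters lay at -167 and 5 and the CCAAT letters at -87, -54 and -21 from the start site. In Cdc20 they lay at -18 for the CHR and at -53 and -8 for the CCAAT box. Mcm5 and Mcm6 each held overlapping E2F letters on opposite strands, at -153 and -149 in Mcm5 and at -110 and -106 in Mcm6. The Cdkn1a window, that of its upstream start site, held p53 half-sites at -73 and -51, and 8.37% of all windows held at least 1. The window of its downstream start site, not printed, held none. Half-sites were not particular to Cdkn1a: 5 of the 29 member windows held at least 1 (Birc5, Bub1b, Cdkn1a, Tk1 and Tyms).

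The first comparison asked how the genes differed between short and long feeding of HFD alone. In HFD mice, 4 members were higher at 20 weeks than at 7 days and 0 were lower, where edgeR called 4.78% of 13255 genes higher and 2.73% lower. The called members were E2f1, the mitotic genes Ccnb2 and Cdc20, and Cdkn1a. Fold changes were above 0 for 31 of the 34 tested members and below 0 for 3, where 48.1% and 51.9% of all genes were, with a median log2 difference of 0.45 against -0.01 over all genes tested. At an unadjusted p under 0.05, 9 members were higher and 1 lower, where 13.3% and 12.2% of all genes were.

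E2f1, the transcription factor that activates S phase genes, was at 1.25, 2.16, 1.48 and 1.63 CPM in HFD 7-day mice 142, 143, 144 and 146. It reached 2.72, 3.66, 3.21 and 3.18 CPM in HFD 20-week mice 25, 28, 33 and 45, so that the 2 groups did not overlap. The log2 fold change was 0.95 ± 0.21 (SE), a 1.93-fold rise (edgeR adjusted p = 0.025).

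Ccnb2 encodes a mitotic cyclin that partners Cdk1. Its level was 0.50, 0.54, 0.52 and 0.60 CPM at 7 days and 1.77, 3.29, 1.57 and 0.72 CPM at 20 weeks in the same order of mice. All 4 HFD 20-week livers lay above the 7-day range, but mouse 45 did so by a small margin, on 18 counts. The rise was 1.77 ± 0.42 on the log2 scale (edgeR adjusted p = 0.033). Cdc20, the activator of the anaphase-promoting complex, was at 0.60, 0.70, 0.77 and 0.32 CPM at 7 days. At 20 weeks it was at 1.96, 3.35, 1.93 and 1.05 CPM, again without overlap, and its rise was 1.77 ± 0.39 on the log2 scale (edgeR adjusted p = 0.026). Cdc20 overlaps Elovl1 on the opposite strand, and Elovl1 differed by 0.02 ± 0.12 (log2) in this comparison.

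Cdkn1a was at 0.41, 0.92, 0.45 and 0.24 CPM in the 7-day HFD livers. Its level was 1.89, 3.07, 1.11 and 1.09 CPM in the 20-week HFD livers, all above the 7-day values. The rise was 3.47-fold, or 1.79 ± 0.47 on the log2 scale (edgeR adjusted p = 0.049). Cdkn1a acts against the cycle, whereas the other 3 called genes act in it.

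**Figure D1:**
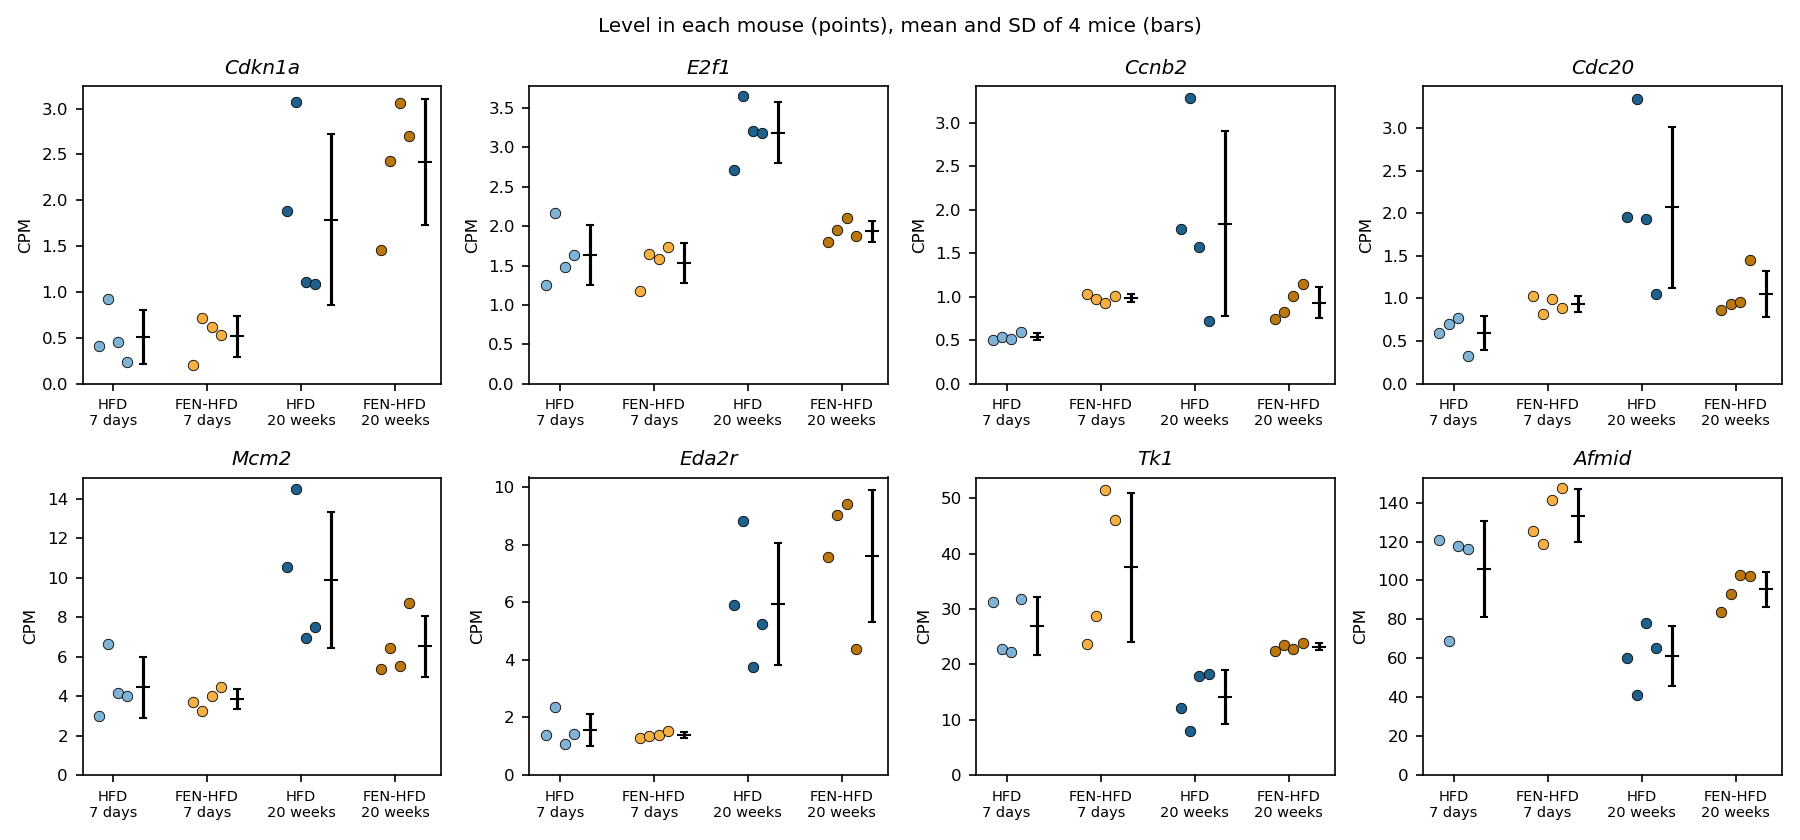
Level (CPM, y axis from 0) of Cdkn1a, E2f1, Ccnb2, Cdc20, Mcm2, Eda2r, Tk1 and Afmid in each of the 16 livers, with the mean and SD of the 4 mice of each group beside the points. Cdkn1a and Eda2r sat higher in both 20-week groups than in both 7-day groups, E2f1 was highest in the HFD 20-week mice (2.72 to 3.66 CPM), and Tk1 and its neighbour Afmid had like patterns.

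The calls rested on few counts and few mice. Library counts ranged from 6 to 118 for these 4 genes over all 16 libraries. Without HFD 20-week mouse 28 or 25, or without HFD 7-day mouse 142 or 146, 0 of the 4 were called, and the median log2 difference of the members was 0.20 without mouse 28 and 0.30 without mouse 142. Without HFD 7-day mouse 143 the median was 0.85, with 20 members higher at an unadjusted p under 0.05. Without HFD 7-day mouse 144 only Cdc20 was called, and without HFD 20-week mouse 33 the calls were Cdc20 and Mcm2. DESeq2 called 7 members higher (the 4, with Mcm2, Aurka and Cenpf) and Tk1 lower.

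Other members followed by role. The 8 origin licensing genes all had fold changes above 0 in the HFD comparison, from 0.08 to 1.14 on the log2 scale, and edgeR called 0 of them. DESeq2 and limma-voom called Mcm2, and the fit of all 16 libraries called Mcm2 and Mcm4. Mcm2, a subunit of the replicative helicase, was at 2.98, 6.65, 4.16 and 3.98 CPM at 7 days. At 20 weeks it was at 10.52, 14.51, 6.97 and 7.53 CPM, above every 7-day value, and its log2 difference was 1.14 ± 0.30 (edgeR adjusted p = 0.054). The other 5 helicase subunits had smaller log2 differences, from 0.25 for Mcm7 to 0.55 for Mcm4. Rrm1, the large subunit of ribonucleotide reductase, also did not overlap between the groups (12.1 to 15.5 CPM against 16.03 to 19.5), with a log2 difference of 0.32 ± 0.11 (edgeR adjusted p = 0.10). In all, 6 members were non-overlapping and higher at 20 weeks and 1, Tk1, was lower, where 9.55% and 7.39% of all genes were.

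Of the 14 tested genes of G2 and mitosis, 13 had fold changes above 0, with a median log2 difference of 0.67, and edgeR called Ccnb2 and Cdc20, to which DESeq2 added Aurka and Cenpf. Aurka, the centrosome kinase, differed by 1.04 ± 0.33 (log2) and Cenpf, a kinetochore protein, by 1.196 ± 0.41, with edgeR adjusted p = 0.087 and 0.11. Mki67 was at 4.39, 8.21, 6.25 and 3.70 CPM at 7 days and at 10.5, 14.5, 4.97 and 4.11 CPM at 20 weeks. Those ranges overlapped, and the log2 difference was 0.58 ± 0.44 (edgeR adjusted p = 0.44). Birc5 (survivin) had a fold change below 0 (log2 -0.16). Among the G1/S genes, Ccnd1, Ccne1, Ccne2 and Cdk2 differed by between -0.30 and 0.24 on the log2 scale and none was called.

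Cell type markers differed between the same 2 groups. Of 7 macrophage and Kupffer cell markers, 6 had fold changes below 0, with Clec4f and Vsig4 called lower, and their summed level was 461 to 968 CPM at 7 days and 373 to 444 CPM at 20 weeks. All 4 tested of the 8 T and NK cell markers had fold changes below 0, with Cd4 called lower, and the list summed to 4.19 to 11.4 CPM at 7 days and 2.07 to 2.78 CPM at 20 weeks. No macrophage or T and NK marker was at 0 counts in any library. Of the 5 tested hepatocyte markers, 3 had fold changes below 0 and 2 above 0, with a median log2 difference of -0.13, and edgeR called 2 lower. Apoa1 and Cps1, called lower by DESeq2 and limma-voom, differed by -0.83 and -1.25 (log2). Of 6 stellate markers, 5 had fold changes above 0 and 1 below (median log2 difference 0.27). Of 5 cholangiocyte markers, 3 had fold changes above 0 and 2 below (median 0.07). EdgeR called 0 in either list, whereas DESeq2 called the stellate markers Dcn and Pdgfrb higher. Marker lists therefore differed in both directions, and the part of cell composition in the members' values was not tested.

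With fenretinide in the diet, edgeR called Cdkn1a alone between 7 days and 20 weeks, while DESeq2 also called Mcm2 higher and limma-voom called Mcm2 higher and Top2a and Tk1 lower. In FEN-HFD mice, edgeR called 1 member higher and 0 lower, where 0.849% of 12949 genes were called higher and 0.332% lower. Cdkn1a was at 0.20, 0.71, 0.62 and 0.53 CPM in FEN-HFD 7-day mice 61, 62, 65 and 66, and at 1.46, 2.43, 3.06 and 2.70 CPM in FEN-HFD 20-week mice 21, 22, 24 and 29. The groups were well apart, with a 4.64-fold rise of 2.21 ± 0.37 on the log2 scale (edgeR adjusted p = 0.019). The call was lost without FEN-HFD 7-day mouse 65 or 66 or without FEN-HFD 20-week mouse 22 or 24, with an edgeR adjusted p of up to 0.065 over 14 alternatives.

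Across all 34 tested members in FEN-HFD mice, Cdkn1a included, fold changes went both ways, with 19 above and 15 below 0. Over all genes, 52.4% and 47.6% were. The members' median was 0.02 against 0.01 over all genes. At an unadjusted p under 0.05, 2 members were higher (Cdkn1a and Mcm2) and 2 lower (Tk1 and Ccne1), where 6.03% and 3.63% of all genes were. Without mouse 29 the median was -0.15, with 12 above 0, and at an unadjusted p under 0.05 7 members were lower. Of the 14 G2 and mitosis genes 11 had fold changes below 0, from -0.43 for Top2a to 0.34 for Aurka. All 8 licensing genes had fold changes above 0, but only Mcm2 exceeded 0.4: it was at 3.71, 3.26, 4.03 and 4.45 CPM at 7 days and at 5.39, 6.42, 5.53 and 8.74 CPM at 20 weeks. Those values did not overlap, and the log2 difference of 0.73 ± 0.18 was not called (edgeR adjusted p = 0.11), although DESeq2 and limma-voom called it. In this contrast 3 members were non-overlapping and higher, where 4.09% of all genes were. E2f1, at 1.171, 1.65, 1.58 and 1.74 CPM and then at 1.80, 1.96, 2.11 and 1.87 CPM, differed by 0.33 ± 0.20 (edgeR adjusted p = 0.73).

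**Figure D2:**
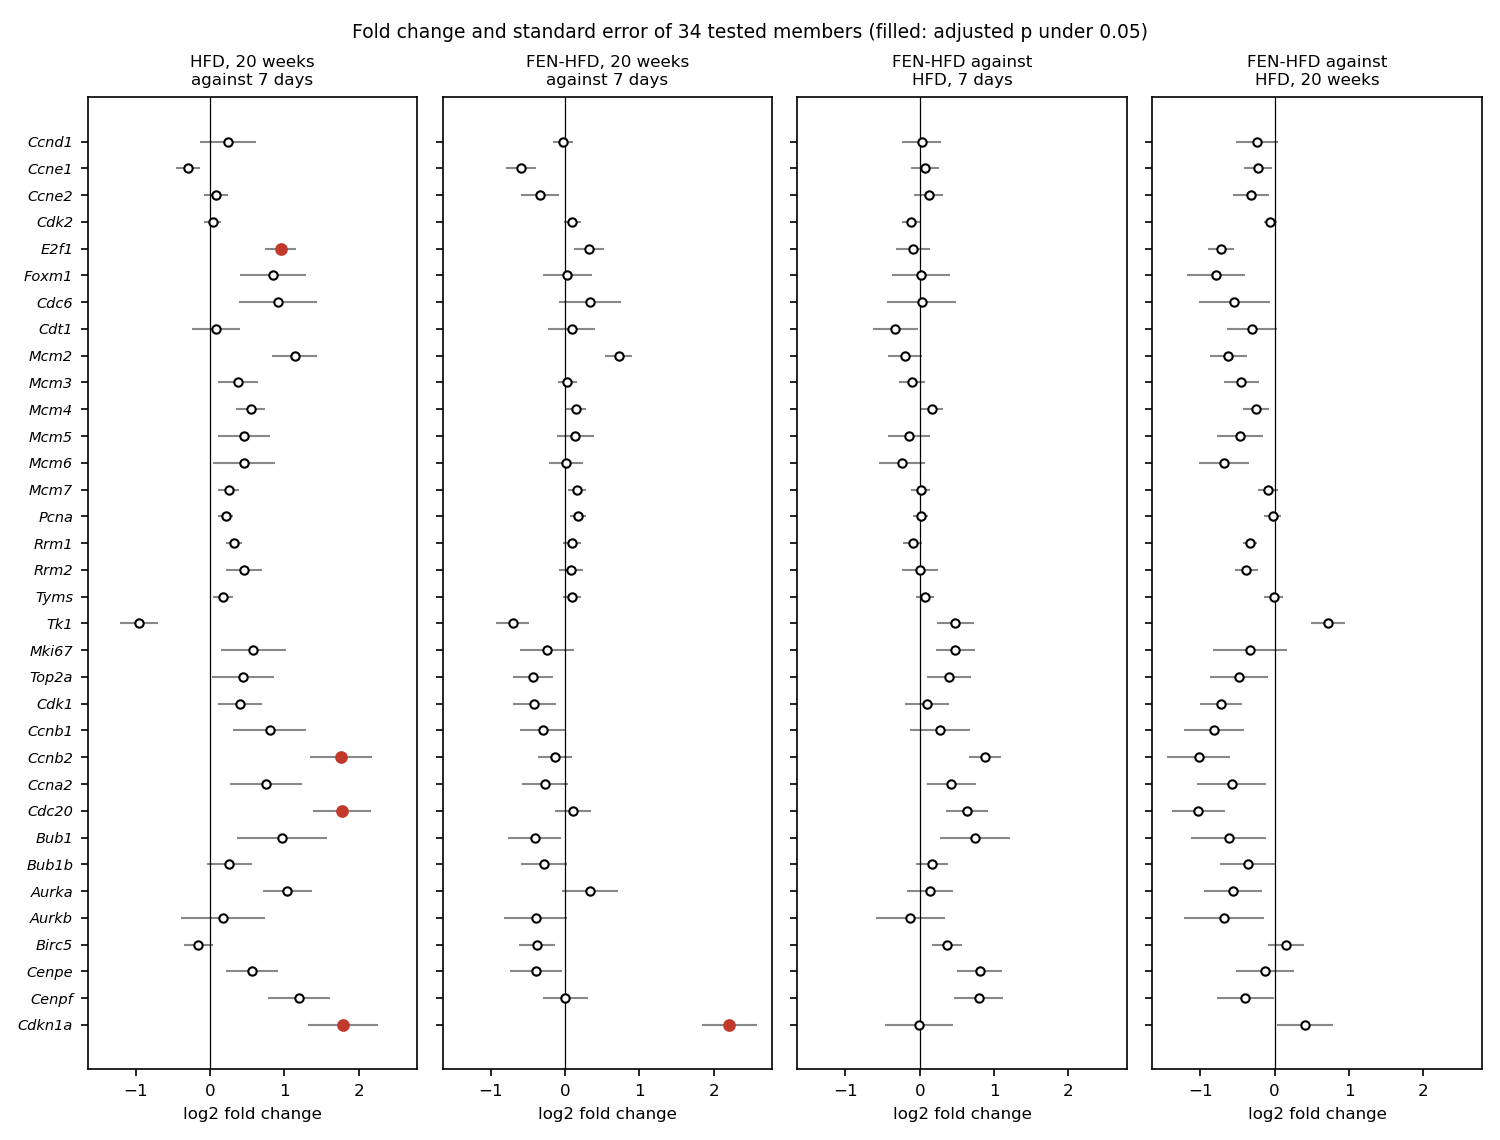
Log2 fold change (points) and standard error (lines) of the 34 tested members in the 4 comparisons, grouped by role from G1/S genes at the top to Cdkn1a at the bottom; filled points have an edgeR adjusted p under 0.05. Cdkn1a was called in both comparisons of 20 weeks with 7 days, E2f1, Ccnb2 and Cdc20 only within HFD, and no member was called between FEN-HFD and HFD.

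Fenretinide was next compared with HFD alone within each duration. After 7 days, edgeR called 0 members in either direction, where 0.0988% of 13157 genes were called higher and 0% lower. DESeq2 and limma-voom also called 0 members. At an unadjusted p under 0.05, Ccnb2, Cenpe, Cenpf and Cdc20 were higher and 0 were lower, where 2.63% and 2.45% of all genes were. All 4 are genes of mitosis. Ccnb2 was at 1.03, 0.97, 0.93 and 1.01 CPM in the FEN-HFD livers against 0.50 to 0.60 CPM in the HFD livers, 2 tight groups that did not overlap. The log2 difference was 0.87 ± 0.21 (edgeR adjusted p = 0.30). Cdc20 did not overlap either, at 1.03, 0.82, 0.99 and 0.89 CPM against 0.32 to 0.77 CPM, with a log2 difference of 0.63 ± 0.28 (edgeR adjusted p = 0.97). These were the only non-overlapping members in this contrast, both higher, where 1.69% of all genes were non-overlapping and higher.

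Of the 14 tested G2 and mitosis genes, 13 had fold changes above 0 after 7 days of fenretinide (median log2 difference 0.41), while 5 of the 8 licensing genes had fold changes below 0 (median -0.12). Over all 34 members the median was 0.07 against -0.01 over all genes, with 24 above and 10 below 0, where 46.8% and 53.2% of all genes were. Both counts moved with single mice. Without HFD mouse 143, whose licensing and mitotic genes were high, 31 members had fold changes above 0 and the median was 0.34. Without HFD mouse 142, 16 did and the median was -0.01.

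The HFD 20-week libraries of the next comparison are those already set against the HFD 7-day libraries, so the comparisons share samples and their values are given side by side. After 20 weeks, 0 members passed the edgeR test between FEN-HFD and HFD, where 0.769% of 13010 genes were called higher and 1.09% lower. DESeq2 and limma-voom each called Tk1 higher and E2f1 and Rrm1 lower. Fold changes were above 0 for 3 and below 0 for 31 of the 34 members, where 51.3% and 48.7% of all genes were, with a median of -0.39 against 0.01 over all genes. At an unadjusted p under 0.05, 1 member was higher and 7 were lower (E2f1, Rrm1, Rrm2, Cdk1, Cdc20, Ccnb2 and Mcm2), where 8.50% and 10% of all genes were. E2f1, Rrm1, Rrm2 and Cdk1 were lower without overlap and Tk1 was higher without overlap, where 6.69% and 6.07% of all genes were.

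E2f1 was the member nearest to a call in that contrast. The FEN-HFD livers held 1.93 ± 0.135 CPM (SD, n = 4) and the HFD livers 3.19 ± 0.384 CPM, with the lowest HFD mouse (2.72 CPM) above the highest FEN-HFD mouse (2.11 CPM). The log2 difference was -0.72 ± 0.17 (edgeR adjusted p = 0.071, and 0.015 to 0.21 over 15 alternatives). It was called in the fit of all 16 libraries as well as by DESeq2 and limma-voom. Rrm1 was at 13.4, 14.6, 13.5 and 14.0 CPM in FEN-HFD mice 21, 22, 24 and 29. That was under the 16.03 CPM of the lowest HFD mouse, for a log2 difference of -0.33 ± 0.09 (edgeR adjusted p = 0.094). Rrm2, the small subunit of the same enzyme, was at 4.004, 5.91, 5.17 and 4.16 CPM against 5.96 to 6.94 CPM, so that its groups were apart by a narrow gap. Cdk1, the mitotic kinase, was at 1.87, 1.72, 1.00 and 2.08 CPM against 2.09 to 3.81 CPM, where mouse 29 and the lowest HFD mouse were nearly equal.

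Cyclin B2 and Cdc20 had the most negative log2 differences of the set at 20 weeks, -1.02 ± 0.42 and -1.03 ± 0.36 (edgeR adjusted p = 0.23 and 0.17). For Ccnb2 the FEN-HFD livers held 0.75, 0.82, 1.00 and 1.14 CPM, and for Cdc20 0.86, 0.94, 0.95 and 1.46 CPM. Only HFD mouse 45 lay below the highest FEN-HFD mouse for either gene. Elovl1, which overlaps Cdc20 on the opposite strand, differed by -0.25 ± 0.14 (log2) in this contrast. At 7 days it differed by -0.25 ± 0.11, where Cdc20 differed by 0.63 ± 0.28. The use of strand in counting was not given, so Cdc20 values could hold reads of Elovl1. All 8 licensing genes were below 0 (median -0.46), as were 13 of the 14 G2 and mitosis genes (median -0.57). Pcna and Tyms differed by -0.03 and -0.01 on the log2 scale. Cdkn1a was 0.41 ± 0.38 above HFD on the log2 scale, with overlapping groups (edgeR adjusted p = 0.6).

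Single libraries moved the 20-week picture. Without HFD mouse 28 the members' median log2 difference was -0.20, with 25 of 34 below 0. Without FEN-HFD mouse 29, the library rich in Rn45s, the median was -0.65 and 31 were below 0, and without HFD mouse 45 it was -0.59. No member was called in any of the 8 fits that left out 1 mouse. Macrophage markers stood the other way from the members, with 7 of 7 fold changes above 0 and 0 called by edgeR (3 higher at an unadjusted p under 0.05), although DESeq2 and limma-voom each called Timd4 higher, and so did the 4 tested T and NK markers, with 0 called by edgeR, DESeq2 or limma-voom (0 at an unadjusted p under 0.05). Mouse 29 was the highest of its group for all of these macrophage and T and NK markers. Of 5 cholangiocyte markers, 4 had fold changes below 0 and 1 above (median log2 difference -0.56), and edgeR called 0. Of 6 stellate markers, 4 had fold changes below 0 and 2 above (median -0.25), and edgeR called 1 higher. DESeq2 and limma-voom called Lrat higher, and limma-voom called Pdgfrb lower. The part of these cell types in the members' values was not tested.

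The difference between the 20-week and the 7-day effect of fenretinide was tested in 1 fit of all 4 groups. EdgeR called 0 members, where 0.00747% of 13387 genes were called higher and 0.0224% lower, and DESeq2 and limma-voom called 0 members. The difference was above 0 for 4 and below 0 for 30 of 34 members, where 52.7% and 47.3% of all genes were, including all 14 tested G2 and mitosis genes, with a median of -0.44 against 0.02 over all genes. At an unadjusted p under 0.05, Ccnb2, Cdc20, E2f1 and Cenpf were lower and 0 members were higher, where 4.73% and 3.95% of all genes were. Ccnb2 had the widest difference, -1.89 ± 0.48 (edgeR adjusted p = 0.19). It was called without HFD 20-week mouse 45 (edgeR adjusted p = 0.028).

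**Figure D3:**
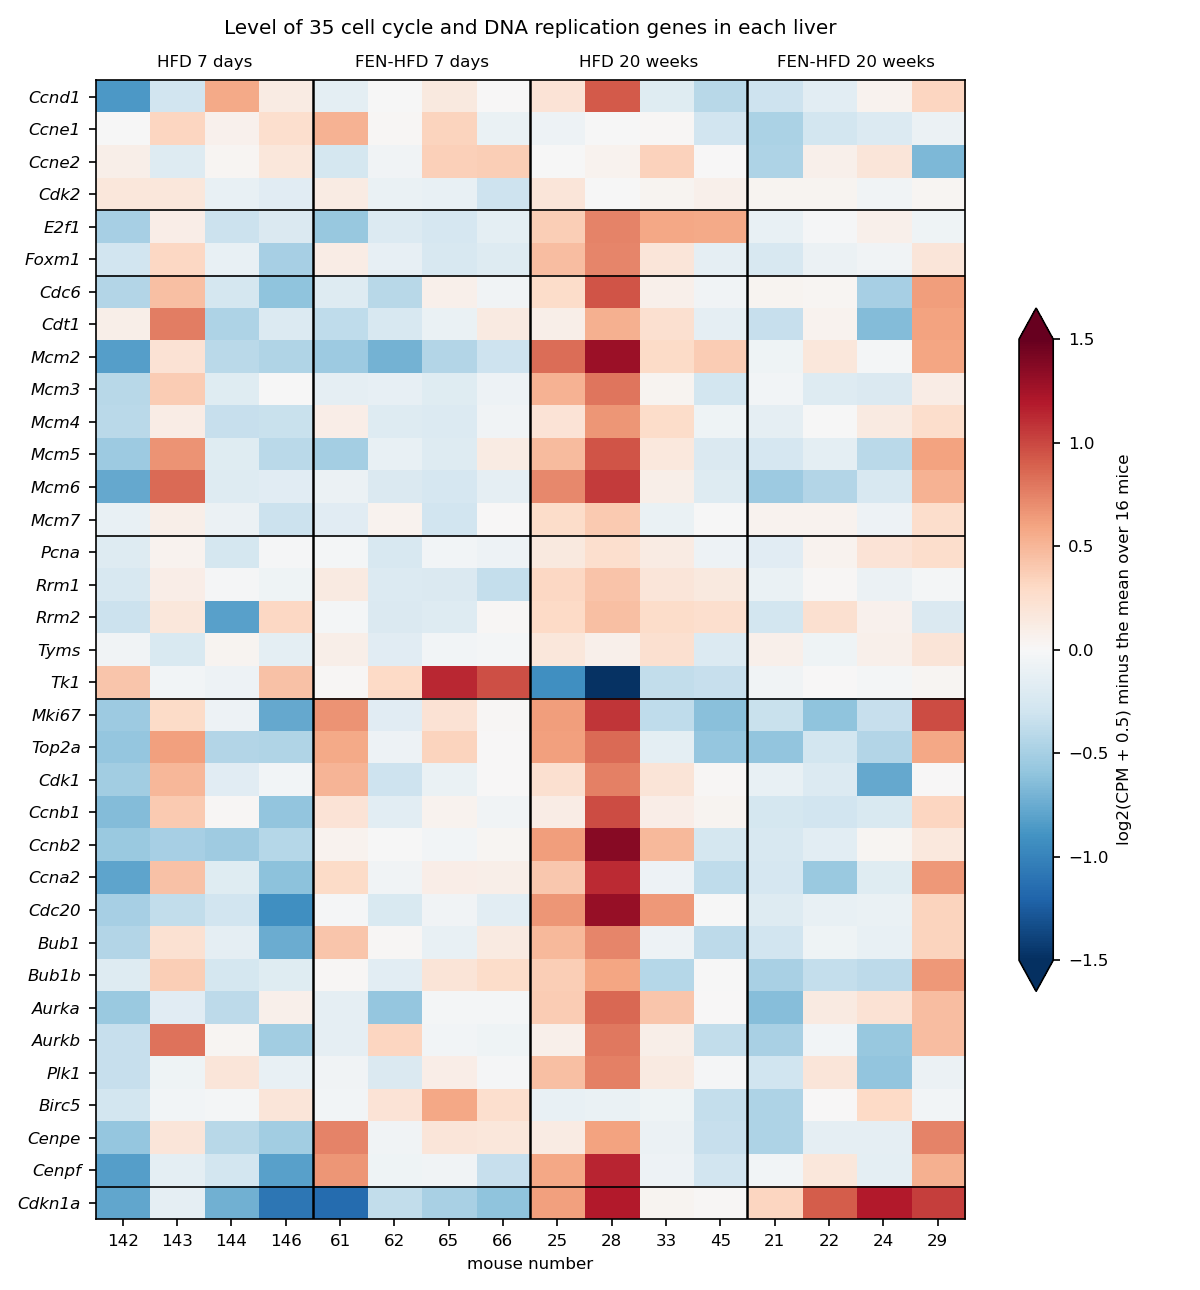
Level of the 35 members (rows, by role) in each of the 16 livers (columns, by group), as log2(CPM + 0.5) minus the member's mean over all livers; red is above and blue below that mean, and the scale is clipped at 1.5. HFD 20-week mouse 28 is red for most replication and mitosis genes, FEN-HFD 20-week mouse 29 and HFD 7-day mouse 143 are red within their groups, and Tk1 is bluest in mouse 28.

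Much of the variation in these genes lay between mice of 1 group. HFD 20-week mouse 28 had the highest level in its group for 29 of the 35 members, and mouse 45 the lowest for 28, whereas mouse 28 was highest for 29.3% and mouse 45 lowest for 22.5% of 13387 genes. FEN-HFD 20-week mouse 29 was highest in its group for 27 members (39.1% of all genes), HFD 7-day mouse 143 for 24 (29.9%) and FEN-HFD 7-day mouse 61 for 18 (35.7%). In mouse 61 the 18 included 10 of the 15 G2 and mitosis genes, among them Mki67 at 10.9 CPM against 5.84 to 7.81 CPM in the other 3.

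Summed over the 15 G2 and mitosis members, the HFD 20-week livers held 21.3 to 59.3 CPM (37.4 ± 16.9, SD, n = 4) and the HFD 7-day livers 17.6 to 36.2 CPM (24.1 ± 8.42). The FEN-HFD livers held 26.05 to 40.1 CPM (32.1 ± 6.00) at 7 days and 20.5 to 45.3 CPM (28.0 ± 11.6) at 20 weeks. All 4 groups overlapped on this sum. Mcm2 to Mcm7 together were at 32.6 to 59.4, 37.0 to 43.0, 43.5 to 81.4 and 40.9 to 59.4 CPM in HFD 7-day, FEN-HFD 7-day, HFD 20-week and FEN-HFD 20-week livers. The FEN-HFD 7-day group was the tightest of the 4 for the helicase.

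**Figure D4:**
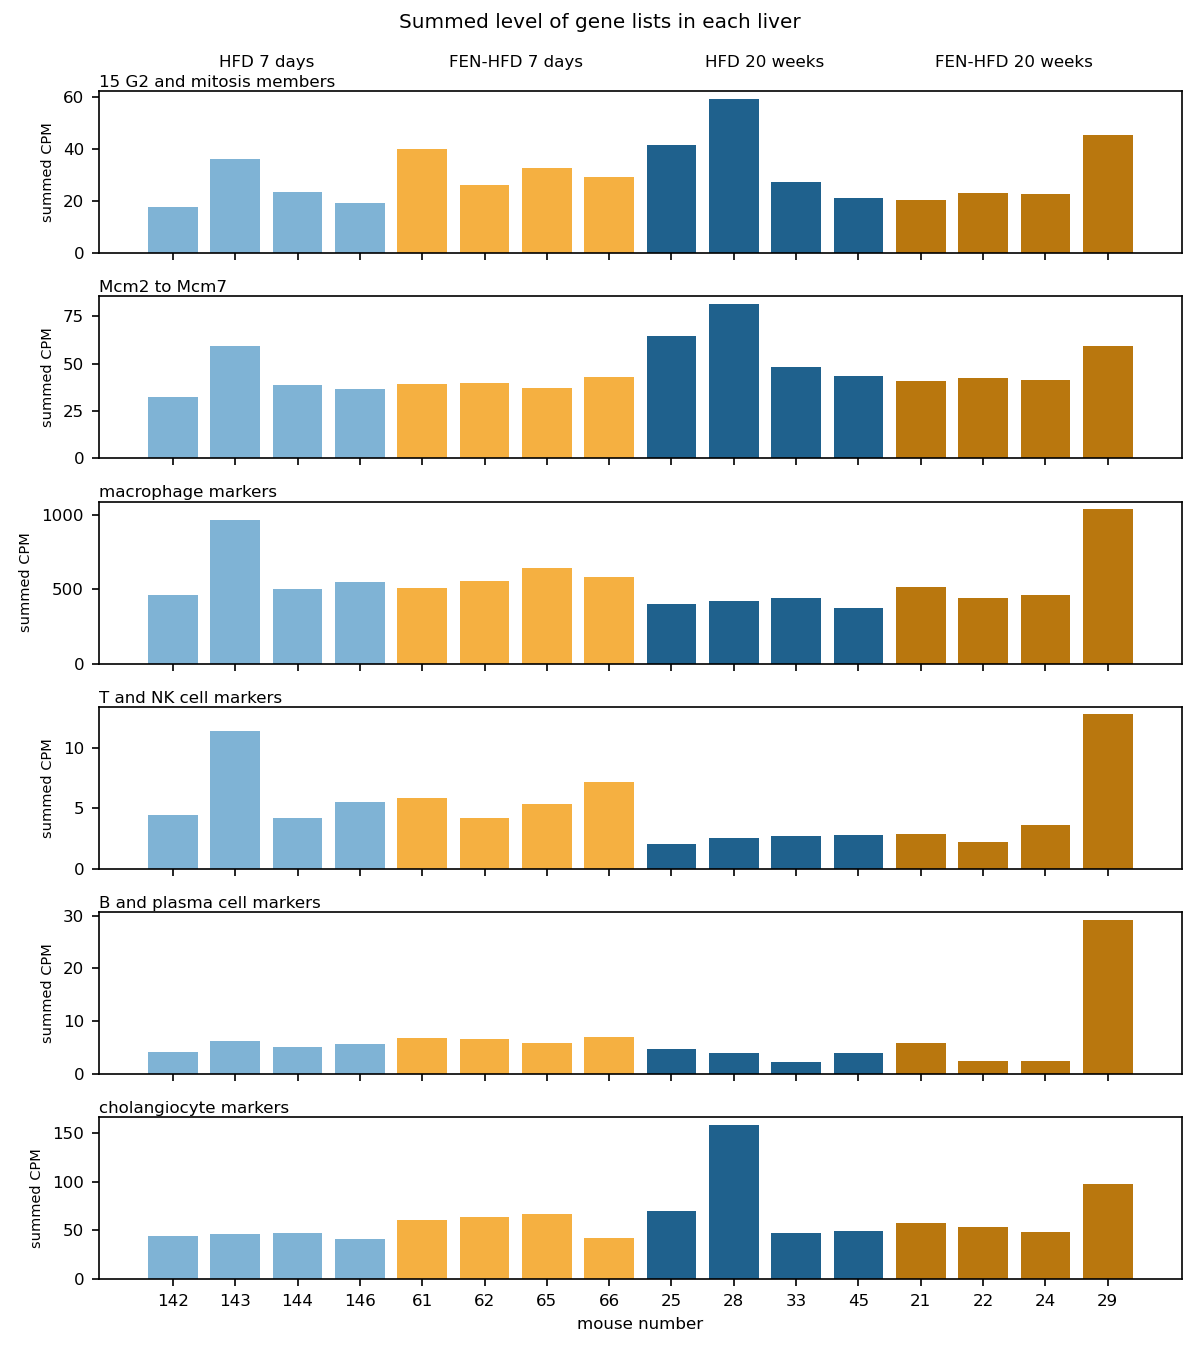
Summed CPM (bars from 0) of the 15 G2 and mitosis members, of Mcm2 to Mcm7, and of 4 marker lists in each of the 16 livers, coloured by group. Mice 143 and 29 were high in the cell cycle sums and in macrophage and T and NK cell markers. Mouse 28 was high in the cell cycle sums and in the cholangiocyte list, where Spp1 alone made up 152 of 158 CPM. Mouse 61 was the highest of its group in the mitotic sum (40.1 CPM).

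The mice with high cell cycle levels differed in the other markers they carried. In HFD 7-day mouse 143, 7 of 7 macrophage, 6 of 8 T and NK and 3 of 5 cholangiocyte markers were the highest of its group. Mouse 29 was highest in its group for 7 of 7 macrophage, 8 of 8 T and NK and 5 of 5 B and plasma cell markers, which summed to 1038, 12.8 and 29.2 CPM. The macrophage list summed to 507 to 644 CPM in FEN-HFD 7-day and 438 to 1038 CPM in FEN-HFD 20-week livers, and the T and NK list to 4.23 to 7.20 and 2.23 to 12.8 CPM. B and plasma cell markers summed to 4.17 to 6.17, 5.79 to 6.92, 2.22 to 4.75 and 2.46 to 29.2 CPM in the HFD 7-day, FEN-HFD 7-day, HFD 20-week and FEN-HFD 20-week groups, and Mzb1 was at 0 in mouse 24.

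HFD 20-week mouse 28 had no such excess of macrophage or T and NK cell markers. Of 5 neutrophil markers it was highest in its group for 3, where mice 143 and 29 were for 4 each in theirs. For macrophage and T and NK markers, mouse 28 was highest in its group for 3 of 7 and 1 of 8. Its macrophage list summed to 424 CPM (373 to 444 CPM in its group) and its T and NK list to 2.51 CPM (2.07 to 2.78 CPM). It was highest in its group for 2 of the 5 cholangiocyte markers, Spp1 at 152 CPM (42.5 to 64.5 CPM in the other 3) and Epcam at 3.502 CPM, but not for Krt19, Krt7 or Sox9. It was also highest for 4 of 6 stellate and 4 of 6 sinusoidal endothelial markers, as was FEN-HFD 7-day mouse 61 in its group, while mouse 29 was highest for 6 of 6 and 5 of 6. The cholangiocyte list summed to 41.4 to 47.3, 42.7 to 67.1, 47.3 to 158 and 48.1 to 97.2 CPM in the 4 groups in the same order, and none of its markers was at 0. The part of these cell types in the cell cycle levels was not tested.

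Tk1 had the sign opposite to most members in HFD mice over time, with Ccne1 and Birc5, and in FEN-HFD against HFD livers at 20 weeks, with Birc5 and Cdkn1a. It was at 31.2, 22.7, 22.2 and 31.9 CPM in HFD 7-day livers and at 12.1, 8.03, 17.9 and 18.3 CPM in HFD 20-week livers, which did not overlap. The log2 difference was -0.95 ± 0.25 (edgeR adjusted p = 0.058), and mouse 28, the highest for most other members, was the lowest of all 16 for Tk1. At 20 weeks the FEN-HFD livers held 22.5, 23.5, 22.8 and 23.9 CPM, all above the HFD livers and within a narrow range, a log2 difference of 0.72 ± 0.23 (edgeR adjusted p = 0.14). The 7-day FEN-HFD livers held 23.7, 28.7, 51.6 and 46.1 CPM.

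Tk1 overlaps Afmid, the arylformamidase of the kynurenine pathway, on the opposite strand (Tk1 at mm10 chromosome 11, 117815526 to 117826092). Afmid was at 121, 68.8, 118 and 116 CPM in HFD 7-day and 60.2, 41.1, 78.4 and 65.4 CPM in HFD 20-week livers, with mouse 28 again the lowest of all 16. Its log2 differences had the sign of those of Tk1 in each comparison: -0.80 ± 0.22 in HFD over time, -0.49 ± 0.11 in FEN-HFD over time, 0.34 ± 0.17 for fenretinide at 7 days and 0.64 ± 0.17 at 20 weeks. None of the 4 passed the edgeR test (adjusted p = 0.065, 0.055, 1.0 and 0.093). The use of strand in counting was not given in the sources used here, so reads of Tk1 and Afmid cannot be told apart and the values of Tk1 are uncertain.

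Overlap with another annotated gene was not particular to Tk1. On either strand, 15 of the 35 members overlapped another annotated gene, among them Mcm7 with Cops6 and Ap4m1, Ccne2 with Ints8 and Ccna2 with Exosc9. Named pseudogenes exist for Ccnb1, Ccnb2, Pcna and Tyms, and reads shared with them could have been split in counting. Ccnb2 values carry that uncertainty.

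Neighbouring genes of the same machinery were read from lists of other mitosis, replication, E2F/RB/DREAM, G1 control and p53 target genes. Of 44 other mitosis and kinetochore genes, 39 were tested in HFD mice over time. Of these, 4 were called higher (Spc24, Spc25, Nek2 and Cdca3) and 0 lower by edgeR, where 4.78% and 2.73% of all genes were, with a median log2 difference of 0.64 against -0.01 over all genes. DESeq2 called 9 and limma-voom 6 higher, where they called 1065 and 763 of all 13255 genes higher. Of the 8 fits that left out 1 mouse, Cdca3 was lost in 7, Spc25 in 5, Nek2 in 5 and Spc24 in 4, and each of the 4 was lost without mouse 142, 25 or 28. Nek2, a centrosome kinase, was at 3.04, 4.17, 3.10 and 1.47 CPM at 7 days and 6.90, 7.997, 6.02 and 5.03 CPM at 20 weeks in HFD livers. The rise was 1.12 ± 0.28 on the log2 scale (edgeR adjusted p = 0.043).

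At 20 weeks, 2 genes of that list among 36 tested were lower in FEN-HFD than in HFD livers and 0 were higher by edgeR, where 1.09% and 0.769% of all genes were. DESeq2 called 4 and limma-voom 6 lower, where they called 587 and 644 of all 13010 genes lower. Nek2 was at 3.29, 2.86, 2.91 and 2.70 CPM in FEN-HFD livers, under every HFD liver, and fell by 1.14 ± 0.17 on the log2 scale (edgeR adjusted p = 0.015). Spc25, a subunit of the NDC80 kinetochore complex, was at 4.79, 5.91, 5.93 and 2.81 CPM against 10.9, 9.73, 9.06 and 10.3 CPM. The groups did not overlap, and Spc25 fell by 1.02 ± 0.20 on the log2 scale (edgeR adjusted p = 0.037). Its call held only without mouse 29 among the 8 fits that left out 1 mouse, whereas that of Nek2 was lost only without HFD mouse 25 or FEN-HFD mouse 21. None of the 40 genes tested at 7 days was called by edgeR, DESeq2 or limma-voom, with 1 higher at an unadjusted p under 0.05 (Tpx2). In FEN-HFD mice over time none of 37 was called by any of these tools, with 1 lower at an unadjusted p under 0.05 (Pttg1).

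Of 43 tested genes of other DNA replication steps, edgeR called Chaf1a alone, in HFD mice over time. DESeq2 called Chaf1a and Cdc45 there, and limma-voom these and Lig1. Chaf1a, the large subunit of the chromatin assembly factor that places histones behind the fork, was at 1.63, 1.81, 1.32 and 1.67 CPM in HFD 7-day livers. At 20 weeks it was at 4.26, 5.11, 3.30 and 3.504 CPM, far above. It rose by 1.32 ± 0.20 on the log2 scale (edgeR adjusted p = 0.0061) and stayed called in all 8 fits that left out 1 mouse. Between FEN-HFD and HFD at 20 weeks edgeR called 0 of the 43, whereas DESeq2 called 1 lower and limma-voom 4 lower. Unadjusted p-values under 0.05 were found for 3 of them, 1 higher and 2 lower. In the FEN-HFD 20-week livers Chaf1a was at 2.25, 2.23, 1.96 and 3.33 CPM, a log2 difference from HFD of -0.76 that was not called (edgeR adjusted p = 0.11). Of 15 tested E2F, RB and DREAM genes, Lin54 was higher and E2f5 lower in HFD mice over time (log2 0.36 and -0.50). Of 14 other G1 regulators, Cdk6 was higher by edgeR (log2 0.52), and DESeq2 and limma-voom also called Wee1. All 3 calls were lost without HFD 20-week mouse 25, 28 or 33, and each also without HFD 7-day mouse 142.

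Targets of p53 other than Cdkn1a were read beside it. In HFD mice over time, edgeR called 5 of 21 tested higher and 0 lower, where 4.78% and 2.73% of all genes were. DESeq2 called 7 and limma-voom 4 of these targets higher, where they called 1065 and 763 of all 13255 genes higher. Fold changes were above 0 for 19, where 48.1% of all genes were, with a median log2 difference of 0.31. Eda2r, a death-domain receptor, was at 1.38, 2.35, 1.06 and 1.43 CPM at 7 days and 5.88, 8.80, 3.76 and 5.24 CPM at 20 weeks. It rose 3.76-fold (log2 1.91 ± 0.32, edgeR adjusted p = 0.0086). Ccng1 (cyclin G1), Phlda3, Plk3 and Perp were the others, with log2 differences of 0.56, 1.61, 1.68 and 0.59. Eda2r, Ccng1 and Perp stayed called in all 8 fits that left out 1 mouse, Plk3 was lost without HFD 7-day mouse 142, and Phlda3 was lost in 6, among them those without mouse 28 or 45.

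In FEN-HFD mice over time, edgeR called 2 of 21 p53 targets higher and 0 lower, where 0.849% and 0.332% of all genes were. DESeq2 called 7 higher and limma-voom 8 higher and 1 lower. Of all 12949 genes, DESeq2 called 256 higher, and limma-voom 505 higher and 387 lower. Fold changes were above 0 for 18, where 52.4% of all genes were, with a median of 0.41. Eda2r was at 1.29, 1.35, 1.39 and 1.54 CPM at 7 days and 7.56, 9.04, 9.39 and 4.37 CPM at 20 weeks. It rose 5.49-fold (log2 2.46 ± 0.23, edgeR adjusted p = 0.00052) and stayed called without any 1 mouse. Aen, a p53-induced nuclease, rose by 0.65 ± 0.13 (edgeR adjusted p = 0.047) and was lost in 6 of 8 such fits. Between FEN-HFD and HFD, edgeR called none of these targets at 7 days (0 at an unadjusted p under 0.05, and 0 by DESeq2 and limma-voom) or at 20 weeks (3 lower at an unadjusted p under 0.05, and Perp by DESeq2 and limma-voom). Cdkn1a and Eda2r thus had the same sign in both diets, each in a comparison with its own 7-day and 20-week mice.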

How the data were processed

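Liver RNA-seq libraries of 16 mice were analysed, 4 in each group. The authors quality-filtered the reads and aligned them with STAR 2.0 to mm10, and the deposited values are raw counts per gene; the counting program, annotation and use of strand were not given in the sources used here. The authors tested with DESeq2 (1.6 in the submitters' processing notes). The table holds 23420 rows, 2 of them with repeated symbols, and 0 columns were left unused.

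Here, each pair of groups was fitted over the whole table with edgeR 4.0.16 in R 4.3.3 (filterByExpr, TMM factors, robust quasi-likelihood test), and a gene was called at a Benjamini-Hochberg adjusted p under 0.05. The difference between the effects of fenretinide was tested in a fit of all 16 libraries. Alternatives were DESeq2 1.42.0, limma-voom (limma 3.58.1) with quality weights, RLE factors, other filters, 1 fit of all libraries, removal of Rn45s and Lars2, and leaving out each mouse. Errors of log2 differences are SE. Members and lists were chosen with earlier results of these data known. All members were open to naming. From each other list up to 4 called genes per comparison were named, or the 2 with the smallest p. Phlda3, Tpx2 and Pttg1 were named after their values were seen. The p-values measure the spread between these mice.

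The method was tested on simulated data, in which the changed genes were drawn at random from all genes passing the filter, without Rn45s and Lars2. Recovery at the low counts of many members was not measured. Each gene was also drawn independently, so no simulated mouse was high in many genes at once, as mouse 28 was for the members. The shares below therefore need not hold for the members. For HFD over time, with 13176 genes, it recovered 74.5% of genes changed 2-fold and 96% of those changed 4-fold, and 7.65% of 183 calls were false. For fenretinide at 20 weeks, with 12954 genes, the shares were 75%, 94% and 6.63% of 181 calls.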

Additional observations from a re-analysis of the deposited data

Results flagged for a closer look

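In 11 of 140 combinations of a member and a group, 1 mouse stood apart from the other 3: its gap to the nearest of them, divided by the range of the group, was above Dixon's 95% critical value. Chance alone flags about 1 in 20 such groups. FEN-HFD 20-week mouse 29, the library with 53.1% of its counts in Rn45s, was the highest for Mki67 (ratio 0.895, 13.5 CPM against 5.16 in the next mouse), Ccnb1 (0.918), Cdc20 (0.842) and Bub1b (0.921). HFD 7-day mouse 143 was the highest for Top2a (0.919, 8.78 CPM against 3.97 in the next mouse), Mcm4 (0.892), Bub1b (0.896) and Cenpe (0.832). In the HFD 20-week group, mouse 28 was the highest for Ccnb1 (0.944, 1.92 CPM against 0.830), mouse 33 was the highest for Ccne2 (0.876) and mouse 45 was the lowest for Birc5 (0.854). No member was called for a difference between the 20-week and the 7-day effect of fenretinide by the edgeR test of that difference (0 called).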

How the results depend on the processing

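No paired analysis was possible because the groups share no mouse numbers. Over all values and alternatives, 0 changed direction past the threshold, 29 lost a call and 27 gained one. Another 2789 stayed called in the same direction, or stayed uncalled and shifted by no more than the SE of the main fit. Mean CPM values, which have no call, were held to the SD of the group instead. The other 53 shifted by more. Uncalled fold changes within the SE could change sign and were not counted apart. For HFD over time (4 members higher and 0 lower by edgeR), DESeq2 called 7 higher and 1 lower, limma-voom 5 higher and 1 lower, the fit of all 16 libraries 6 higher and 1 lower, and a minimum of 10 counts in every library, which tests fewer genes, 2 higher. Leaving out 1 mouse gave 0 to 5 higher. For FEN-HFD over time (1 higher and 0 lower), DESeq2 called 2 higher, limma-voom 2 higher and 2 lower, and the minimum of 10 counts 0, and leaving out 1 mouse gave 0 to 1 higher. For fenretinide at 20 weeks (0 and 0), DESeq2 and limma-voom each called 1 higher and 2 lower and the fit of all 16 libraries 1 lower. For the difference between the effects of fenretinide (0 and 0), leaving out 1 mouse gave 0 to 1 lower. The cause was not tested. Low counts limit the precision of the mitotic genes, and counting intervals and floors cover counting error only.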

Other observations

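Circadian clock genes, which keep the daily rhythm of the liver, were read from a list of which 14 were tested. EdgeR called 0 of them in each of the 5 comparisons. At an unadjusted p under 0.05, 1 was higher in FEN-HFD than in HFD livers at 20 weeks and 0 were at 7 days, 2 were lower in HFD mice over time, and 2 were higher and 1 lower in FEN-HFD mice over time. Over all genes tested, 8.50%, 2.63%, 12.2%, 6.03% and 3.63% were, in the same order. DESeq2 called Per2 higher in FEN-HFD livers at 20 weeks and Bhlhe41 lower in HFD mice over time, and limma-voom called Hlf higher in FEN-HFD mice over time.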
